A study of Mus musculus with 8 samples.

Results

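The genes described here are known targets of the transcription factors ATF4 and CHOP, together with the genes of both factors (Atf4 and Ddit3). They were chosen by symbol from knowledge of the pathway, with earlier results of these data known. All 35 symbols were found in the deposited count table, on 36 of its 56077 rows. The extra row is a second Ddit3 locus of 105 bases, which held at most 1 count in any library and was left aside. Of the 35 genes, 30 had enough counts to be tested among 14261 genes, and Phgdh, Pycr1, Slc7a11, Stc2 and Tnfrsf10b did not. The samples were livers of 6-month-old C57BL/6 mice, fed and killed in the early morning: 4 wild-type animals (libraries W32, W33, W76 and W90) and 4 animals heterozygous for eIF2α (H11, H12, H15 and H75). The genotype of the second group is written as Eif2a flox/+ with no recombinase named, and the growth protocol describes the mice of both groups as lean and wild-type. Sequencing libraries were made from total RNA after removal of ribosomal RNA. Nothing states that the mice came from separate litters, so p-values measure only the spread between these samples.

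When eIF2α, the α subunit of translation initiation factor 2, is phosphorylated, protein synthesis slows while translation of Atf4 mRNA goes up through short upstream reading frames. ATF4 then binds C/EBP-ATF response elements, often together with a C/EBP family partner, and induces genes of amino acid synthesis and transport, of tRNA charging and of redox balance, among them Ddit3, which encodes CHOP. In liver this response follows amino acid shortage, mitochondrial stress and protein misfolding in the endoplasmic reticulum. Since ATF4 is controlled mainly at translation, the amount of its mRNA is a limited guide to the amount of the protein.

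Library totals ran from 22177979 to 28564357 counts. The targeted gene Eif2s1, which encodes eIF2α, was at 28.4 to 32.8 CPM (counts scaled by library size and TMM factor) in wild-type libraries and at 20.5 to 25.1 CPM in the others, without overlap (log2 fold change -0.44, SE 0.095; adjusted p = 0.315, edgeR). The hepatocyte markers summed to 81151 to 108244 CPM in wild-type and 93575 to 102462 CPM in heterozygous libraries, and the summed Kupffer cell, endothelial, cholangiocyte and lymphocyte markers overlapped between the groups. Stellate cell markers summed to 171 to 225 CPM in wild-type libraries, to 91.4 CPM in H75 and 150 CPM in H12, below all of these, and to 243 CPM in H15 and 251 CPM in H11, above them. Acute phase genes encode plasma proteins that hepatocytes secrete during inflammation, and 14 of 16 were higher with the heterozygous genotype at an unadjusted p under 0.05 (edgeR), against 4.9% of all genes. Set against the mean of the wild-type libraries, their median was 1.89 in H12, 1.56 in H75, 0.66 in H11 and 0.12 in H15 on the log2 scale. Wild-type libraries ran from -0.23 to 0.26, a range that held H15 alone of the heterozygous ones. Fewer cells of a type and less RNA per cell cannot be told apart in bulk tissue.

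Promoter sequences are shown first because the response element that ATF4 is known to bind could be searched in them. RefSeq promoters on GRCm38.p6, from 250 bases before to 50 bases after each start site, matched 31 of the 35 genes, all but Aldh1l2, Cth, Nars and Tnfrsf10b. The core TGATGNAA was searched on both strands, where N is any base. It stood in at least 1 promoter of 10 of these 31 genes (32.3%) and of 1219 of 27025 genes in the whole table (4.51%). The stricter core TGATGCAA, which is contained in the first, stood in 8 of 31 (25.8%) and in 279 of 27025 (1.03%). The palindromic cAMP response element TGACGTCA stood in 0 of 31 and in 549 of 27025 (2.03%). The genes are on the list because they are known targets, so these shares describe the list.

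The 250 bases before the start site are given for 3 genes whose libraries did not overlap between the genotypes, 5′ to 3′ on the strand of the gene, with matches to TGATGNAA or its reverse complement in capitals. Chac1 has 1 match, Slc7a11 has 2 in opposite orientation, and Mthfd2 has none. The Mthfd2 stretch stands before a RefSeq start site that lies inside the GENCODE bounds of the gene.
Chac1 (chr2:119350992-119351241, plus strand): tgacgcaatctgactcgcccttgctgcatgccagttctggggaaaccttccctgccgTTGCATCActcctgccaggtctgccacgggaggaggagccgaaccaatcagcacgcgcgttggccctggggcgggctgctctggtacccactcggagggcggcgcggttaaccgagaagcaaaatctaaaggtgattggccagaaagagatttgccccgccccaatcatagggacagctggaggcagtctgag
Slc7a11 (chr3:50443614-50443863, minus strand): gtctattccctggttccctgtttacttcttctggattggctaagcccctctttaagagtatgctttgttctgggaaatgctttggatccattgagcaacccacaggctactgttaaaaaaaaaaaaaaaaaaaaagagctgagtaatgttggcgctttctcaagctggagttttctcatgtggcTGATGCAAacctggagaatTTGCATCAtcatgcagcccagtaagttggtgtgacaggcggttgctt
Mthfd2 (chr6:83317605-83317854, minus strand): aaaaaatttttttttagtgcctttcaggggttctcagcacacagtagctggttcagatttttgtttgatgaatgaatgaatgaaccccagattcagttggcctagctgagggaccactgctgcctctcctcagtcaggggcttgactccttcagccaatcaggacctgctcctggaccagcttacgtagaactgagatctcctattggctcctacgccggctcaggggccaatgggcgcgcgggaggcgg

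For the other 8 genes with a match, the match is shown in capitals with 10 bases on each side, on the strand of the gene. The Asns match lies 23 bases before the RefSeq start site. The matches of Asns, Jdp2, Nupr1, Atf3 and Vldlr lie inside the GENCODE bounds of their genes. The Trib3 match begins 15 bases into the part transcribed from the RefSeq start site, and lies outside the GENCODE bounds of that gene. Jdp2 and Vldlr have several start sites, and a match stands before 1 of them.
Asns (chr6:7693215-7693242, minus strand): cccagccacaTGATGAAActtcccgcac
Jdp2 (chr12:85599373-85599400, plus strand): tagccggggcTGATGCAAcccgtcccgc
Nupr1 (chr7:126625563-126625590, minus strand): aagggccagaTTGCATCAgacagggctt
Atf3 (chr1:191183426-191183453, minus strand): cttctcgcacTTGCATCAccaagtccgc
Fgf21 (chr7:45615612-45615639, minus strand): gacccccccaTTGCATCAtccgtccagg
Trib3 (chr2:152344029-152344056, minus strand): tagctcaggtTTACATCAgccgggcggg
Vldlr (chr19:27216810-27216837, plus strand): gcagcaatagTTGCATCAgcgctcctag
Pycr1 (chr11:120643834-120643861, minus strand): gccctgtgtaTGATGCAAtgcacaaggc

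Atf4 mRNA itself was at similar levels in both genotypes. Atf4 lies on chromosome 15 from 80255184 to 80257541 (GRCm38) and had 59.2, 66.5, 64.7 and 82.9 CPM in W32, W33, W76 and W90. Its values in H12, H15, H75 and H11 were 91.4, 84.8, 80.9 and 57.2 CPM. H11 was below all wild-type libraries and H12 and H15 were above them, so the groups overlapped. Its log2 fold change was 0.20 (SE 0.15, adjusted p = 0.712, edgeR), and it ran from 0.11 to 0.33 over 18 other settings.

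Ddit3, which encodes the stress factor CHOP, was spread much more widely in heterozygous livers than in wild-type livers. It had 7.02, 6.25, 8.48 and 10.9 CPM in W32, W33, W76 and W90, a 1.74-fold range. In H11, H12, H15 and H75 it had 4.10, 28.9, 5.27 and 16 CPM, a 7.06-fold range. H12 and H75 thus lay above every wild-type library and H11 and H15 below every one. The log2 fold change was 0.74 (SE 0.53, adjusted p = 0.697, edgeR) and was 0.043 without H12, so the fitted difference rested on that library. Ddit3 lies on chromosome 10 from 127290774 to 127296288, and its exons overlap Mars and Gm4189 on the other strand. No source used here says whether strand was used in counting. Such an overlap was present for 9 of the listed genes, the others being Atf5, Cebpg, Jdp2, Psph, Shmt2, Aldh1l2, Slc6a9 and Rassf1. Mars had a mean of 47.5 ± 4.13 CPM in wild-type livers, against 50.1 ± 4.35 CPM with the heterozygous genotype (SD, n = 4 each).

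The other transcription factor genes formed a low and variable set and an abundant and steady set. Atf3, a repressor induced by many stresses, had 1.19, 0.393, 0.694 and 0.946 CPM in the wild-type libraries and 0.562, 4.28, 0.977 and 1.35 CPM in H11, H12, H15 and H75. H12 stood far above and H75 slightly above the wild-type range, and the log2 fold change of Atf3 went from 1.15 (SE 0.60, adjusted p = 0.590, edgeR) to 0.24 without it. Nupr1, a small stress-induced chromatin protein, was also highest in H12. It had 0.477, 0.536, 0.308 and 0.530 CPM in wild-type libraries and 0.843, 2.12, 0.595 and 0.450 CPM in H11, H12, H15 and H75, with H11 and H15 above the wild-type range and H75 inside it. Its log2 fold change was 1.12 (SE 0.49, unadjusted p = 0.0467, adjusted p = 0.526, edgeR) and 0.45 without H12.

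Jdp2, a partner and repressor of AP-1 factors, was higher with less spread. It had 2.04, 1.39, 0.886 and 1.97 CPM in wild-type libraries and 2.85, 2.93, 2.0 and 3.05 CPM in H11, H12, H15 and H75. Of these, 3 lay above every wild-type library, and H15 lay just below W32. The log2 fold change was 0.78 (SE 0.28, unadjusted p = 0.0207, adjusted p = 0.466, edgeR). Cebpg, a C/EBP partner of ATF4, had a mean of 42.7 ± 1.68 CPM in wild-type livers, against 47.0 ± 3.09 CPM with the heterozygous genotype (SD, n = 4 each). Atf5, another factor translated under stress, averaged 271 ± 32.2 and 266 ± 28.7 CPM (SD, n = 4 each).

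Asns, which makes asparagine from aspartate and glutamine, had the largest difference among the genes of the list. Asns lies on chromosome 6 from 7675169 to 7693254 and had 0.715, 1.72, 1.35 and 1.36 CPM in W32, W33, W76 and W90, which were 21, 48, 35 and 36 counts. In H11, H12, H15 and H75 it had 10.1, 13.9, 4.25 and 32.1 CPM, or 251, 362, 100 and 641 counts. Every heterozygous library lay above every wild-type library, and the heterozygous libraries differed among themselves by 7.55-fold. The fitted fold was 11.7 (log2 3.55, SE 0.57), rank 6 by p among all genes tested, and it did not pass over all genes (adjusted p = 0.196, edgeR). DESeq2 called it (adjusted p = 2.29e-05), and so did edgeR without H15 (adjusted p = 0.00339). With all genes of any count in the test, edgeR also called it (adjusted p = 0.00928).

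Mthfd2 and the other one-carbon enzymes of mitochondria make and move the folate units that serve purine and serine metabolism. Mthfd2, on chromosome 6 from 83305691 to 83325908, had 0.341, 0.715, 0.886 and 0.643 CPM in wild-type libraries and 1.04, 2.08, 1.10 and 2.50 CPM in H11, H12, H15 and H75. The groups did not overlap, and H12 and H75 were the highest, as for Asns. The log2 fold change was 1.37 (SE 0.39, unadjusted p = 0.00579, adjusted p = 0.386, edgeR), with 10 to 54 counts per library behind it. Shmt2, which supplies these units from serine, was among the steadiest genes, at 208 ± 13.1 and 205 ± 5.77 CPM (SD, n = 4 each). Aldh1l2, which releases them as carbon dioxide, was highest in H15 (1.19 CPM) and lowest in H75 (0.250 CPM), against 0.322 to 0.605 CPM in wild-type libraries. Mthfd1l was at 0.227 to 0.443 CPM in wild-type and 0.161 to 0.800 CPM in heterozygous libraries.

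The serine and proline synthesis genes were expressed at low levels, with Psph the highest of them. Phgdh, the first enzyme of serine synthesis, had 1 to 9 counts per library, and Pycr1, the last of proline synthesis, had 0 to 8. Psat1, the second enzyme of serine synthesis, had a mean of 0.335 ± 0.0594 CPM in wild-type livers, against 0.488 ± 0.311 CPM with the heterozygous genotype (SD, n = 4 each), the latter led by H12 at 0.925 CPM. Psph, the last enzyme of that path, averaged 4.76 ± 1.08 and 4.97 ± 0.652 CPM, and Aldh18a1 of proline synthesis 0.880 ± 0.314 and 1.07 ± 0.160 CPM (SD, n = 4 each). None of these genes separated the genotypes.

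Of the abundant amino acid enzymes of hepatocytes, Cbs and Gpt2 had close means in both groups, and Cth had a higher mean in heterozygous livers that did not pass the test. Cbs, which joins homocysteine and serine, had a mean of 384 ± 35.4 CPM in wild-type livers, against 382 ± 23.3 CPM with the heterozygous genotype (SD, n = 4 each). Gpt2, a mitochondrial alanine transaminase, averaged 442 ± 71.5 and 426 ± 35.2 CPM. Cth, which releases cysteine from cystathionine, had 350, 363, 408 and 280 CPM in wild-type libraries and 474, 488, 296 and 472 CPM in H11, H12, H15 and H75. Heterozygous libraries other than H15 lay above every wild-type library, while H15 lay inside their range. For Cth the log2 fold change was 0.30 (SE 0.17, adjusted p = 0.630, edgeR), and without H15 DESeq2 gave 0.45 and called the gene (adjusted p = 0.0254). DESeq2 then called 4.88% of all genes, and edgeR without H15 did not call Cth (adjusted p = 0.128).

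Among the genes of transport and tRNA charging, Slc7a11 had few counts but no overlap between the groups. Slc7a11, the cystine and glutamate exchanger, lies on chromosome 3 from 49892526 to 50443614 and had 1, 1, 2 and 1 counts in W32, W33, W76 and W90. In H11, H12, H15 and H75 it had 10, 6, 9 and 6 counts, which is 0.231 to 0.402 CPM. The groups held 5 and 31 counts in all, too few for the filter on low counts. With that filter removed the log2 fold change was 2.72 (SE 0.68, adjusted p = 0.201, edgeR), with an unadjusted p of 0.00115. H15 was the second highest library here, unlike for Asns. Nars, asparaginyl-tRNA synthetase, had a mean of 82.2 ± 5.59 CPM in wild-type livers, against 92.6 ± 18.3 CPM with the heterozygous genotype, and Slc6a9, a glycine transporter, 21.1 ± 2.74 and 21 ± 4.41 CPM (SD, n = 4 each).

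Of the feedback and growth control genes, only Chac1 had groups that did not overlap. Chac1 degrades glutathione, lies on chromosome 2 from 119351229 to 119354381, and had 1.6, 2.14, 1.08 and 0.756 CPM in W32, W33, W76 and W90. In H11, H12, H15 and H75 it had 5.46, 2.23, 3.31 and 3.85 CPM. All 4 lay above the wild-type libraries, H12 by little, and H11 was the highest, which was the lowest heterozygous library for Ddit3. The fitted fold was 2.65 (log2 1.4, SE 0.36; adjusted p = 0.354, edgeR), and DESeq2 called it with an adjusted p of 0.0218. DESeq2 no longer called Chac1 when W32, W76, W90, H11 or H75 was left out (adjusted p = 0.0673 to 0.180).

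The neighbours of Chac1 in the feedback arm gave smaller values. Trib3, a pseudokinase that inhibits ATF4 and AKT, had a mean of 2.34 ± 0.563 CPM in wild-type livers, against 2.83 ± 0.916 CPM with the heterozygous genotype (SD, n = 4 each). Sesn2, a leucine sensor that restrains mTORC1, averaged 6.62 ± 1.66 and 7.39 ± 0.916 CPM. Ddit4, another mTORC1 inhibitor, had 23.0, 12.1, 19.0 and 13.3 CPM in wild-type libraries and 12.0, 3.78, 14.4 and 16.9 CPM in H11, H12, H15 and H75. H12, the library highest in Ddit3, Atf3 and Nupr1, was thus the lowest in Ddit4 (log2 fold change -0.52, SE 0.38; adjusted p = 0.700, edgeR).

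The 4 tested genes of secreted factors and receptors had log2 fold changes below 0, and edgeR called 0 of them. That of Fgf21 was -0.098, and it was 0.14 without W90 and 0.14 without H12. Fgf21, a hormone of the fasting response, had a mean of 2.64 ± 1.23 CPM in wild-type livers, against 2.49 ± 1.09 CPM with the heterozygous genotype, and Gdf15, which reduces appetite, 5.80 ± 2.09 and 4.52 ± 1.21 CPM (SD, n = 4 each). Vegfa, the vascular growth factor, averaged 157 ± 20.9 and 140 ± 14.9 CPM, and the glycoprotein hormone gene Stc2 had 0 to 14 counts per library. Vldlr, the receptor of very low density lipoprotein, had 3.07, 1.29, 0.848 and 1.51 CPM in wild-type libraries and 0.723, 0.193, 1.44 and 0.10 CPM in H11, H12, H15 and H75. Heterozygous libraries other than H15 lay below every wild-type library, and H15 lay inside their range. For Vldlr the log2 fold change was -1.43 (SE 0.67, adjusted p = 0.552, edgeR), and it was -2.28 and called by DESeq2 without H15 (adjusted p = 0.0131). DESeq2 then called 4.88% of all genes, and edgeR without H15 did not call Vldlr (adjusted p = 0.131). Adipocyte markers, of which Lep was at 0 in every library, summed to 6.43 to 13.2 CPM in wild-type and 2.38 to 7.01 CPM in heterozygous libraries, and their part in the Vldlr values was not tested. Of 5 adipocyte markers, 1 had enough counts to be tested.

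The cell death genes had differences that did not pass the test. Bbc3, which encodes the BH3 protein PUMA, had a mean of 8.56 ± 2.17 CPM in wild-type livers, against 6.70 ± 0.960 CPM with the heterozygous genotype (SD, n = 4 each). Rassf1, a tumour suppressor, averaged 5.74 ± 1.22 and 7.34 ± 1.32 CPM, and the death receptor gene Tnfrsf10b had 5 to 15 counts per library.

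**Figure D1:**
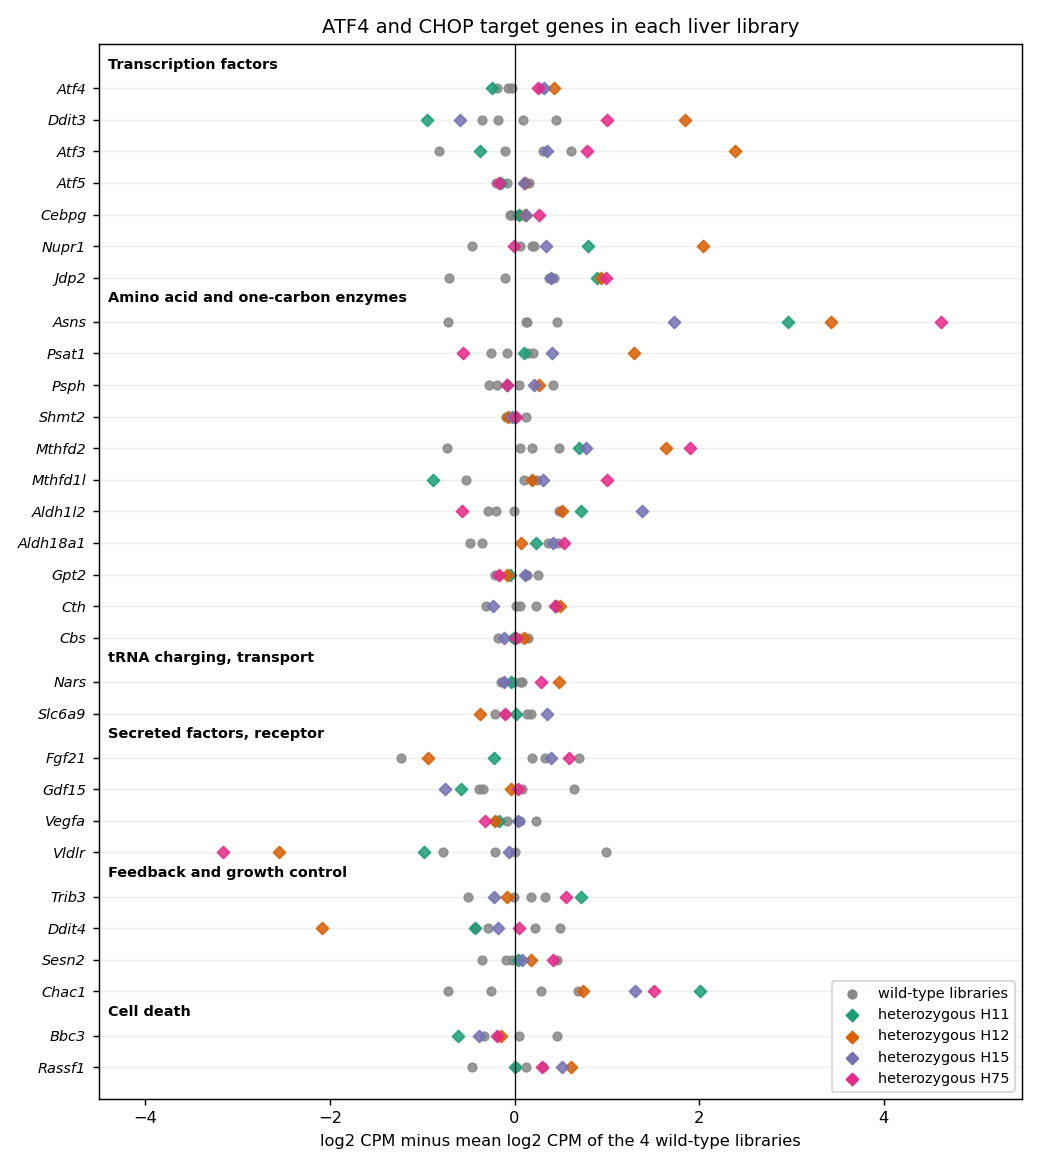
Each row is 1 of the 30 tested genes, ordered by role, and each point is 1 library: grey circles are the 4 wild-type libraries and coloured diamonds the 4 heterozygous libraries. The x axis is log2 CPM relative to the wild-type mean. All diamonds lie to the right of all circles for Asns, Mthfd2 and Chac1, and H12 stands far out for Ddit3, Atf3 and Nupr1.

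**Figure D2:**
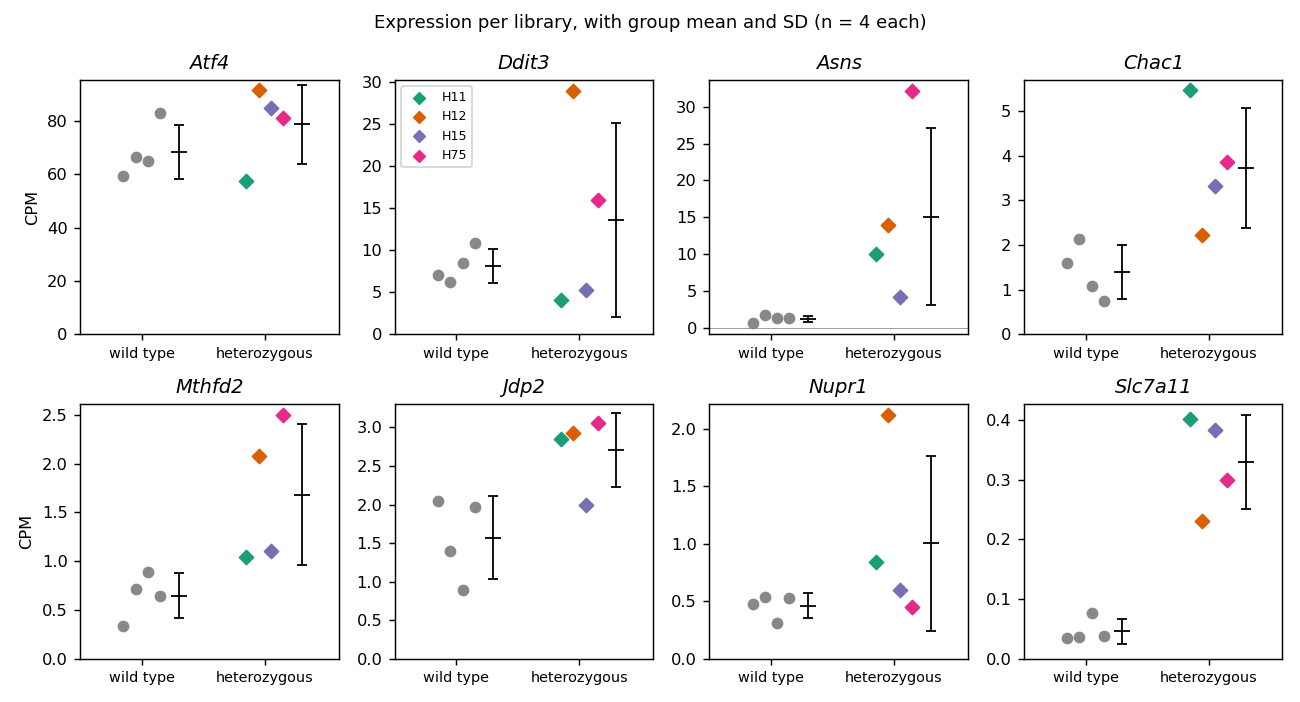
CPM of 8 genes in each library, with the mean and SD of each group of 4 beside the points. Asns, Chac1, Mthfd2 and Slc7a11 do not overlap between the genotypes, while Atf4, Ddit3, Jdp2 and Nupr1 do.

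Over the 30 tested genes, edgeR called 0 at an adjusted p under 0.05, as it did for 0% of the 14261 genes tested. At an unadjusted p under 0.05 there were 5 higher genes (Jdp2, Nupr1, Asns, Mthfd2 and Chac1), against 4.9% of all genes as higher, and 0 lower, against 4.44% of all genes as lower (9.34% in either direction). DESeq2 called 2 higher genes, Asns and Chac1, against 0.639% of all genes it tested as higher, and 0 lower against 0.428%. Limma-voom called 0, against 0% of all genes, and had 4 higher and 1 lower genes (Vldlr) at an unadjusted p under 0.05, against 4.35% and 5.04% of all genes (9.4% in either direction). In the authors' deposited table, 2 of the genes had an adjusted p under 0.05, Asns (2.36e-05) and Chac1 (0.0208), against 0.33% of its genes as higher. The groups did not overlap for 3 tested genes, all higher with the heterozygous genotype. Of all genes 4.38% did not overlap, 2.06% higher and 2.32% lower. The median log2 fold change was 0.19, with 19 of 30 genes above 0, while over all genes the median was 0.0051 and 51.1% were above 0. The list was chosen with earlier results of these data known, so these values describe the list.

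These counts depended on single libraries. Without H15 edgeR called 1 listed gene, Asns, among 252 genes in all (1.74%). DESeq2 then called 5 listed genes, Asns, Chac1, Mthfd2 and Cth as higher and Vldlr as lower, among 757 genes in all (4.88%). The groups did not overlap for 6 of 30 tested genes without W32, against 6.24% of all genes, for 6 of 31 without H15, against 13.4%, and for 5 of 31 without H75, against 6.73%. Without Asns, Chac1 and Mthfd2, which were chosen after their values were seen, the median log2 fold change of the other 27 genes was 0.16. Against the wild-type mean, the medians of these 27 genes ran from -0.040 to 0.11 over the heterozygous libraries. Every heterozygous library thus lay inside the wild-type range, which was -0.10 to 0.14 on this log2 scale.

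The larger fold changes lay among the less expressed genes. Of 6 tested genes with a mean of at least 100 CPM (Atf5, Shmt2, Gpt2, Cth, Cbs and Vegfa), 0 had an unadjusted p under 0.05, and the largest absolute log2 fold change was 0.30. Among 6 genes at 10 to 100 CPM 0 had such a p, and the median absolute log2 fold change was 0.19. All 5 lay among the 18 genes under 10 CPM, 4 of them among 13 at 1 to 10 CPM and 1 (Nupr1) among 5 under 1 CPM. These limits were set after the values were seen, and low counts widen fold changes by themselves. Over all genes of any level 4.9% were higher at that p. Shares of all genes by level were not computed, so the counts by level describe the listed genes only.

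**Figure D3:**
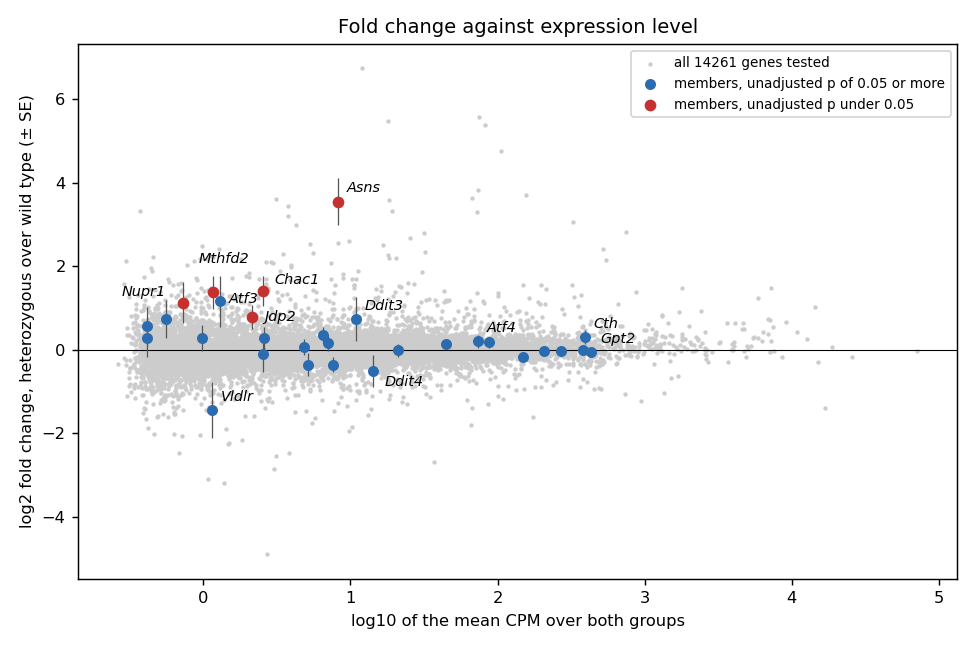
The log2 fold change (heterozygous over wild type, error bars SE) of the 30 tested genes against log10 of their mean CPM, over a grey background of all 14261 genes tested. The red points, at an unadjusted p under 0.05, all lie at mean levels below 10 CPM, and of the genes at 100 CPM or more Cth lies farthest from 0, at 0.30.

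Per kilobase of gene, the order of levels in wild-type livers began with Cth at 193 ± 29.2 CPM per kilobase, Atf5 at 156 ± 18.6, Gpt2 at 121 ± 19.6 and Shmt2 at 90.7 ± 5.71 (SD, n = 4 each). Cth and Atf5, like Atf5 and Gpt2, lay within the sum of their SDs of each other, and Gpt2 and Shmt2 did not. Atf4 was in place 7 at 39.6 ± 5.90 CPM per kilobase, and Slc7a11 was last of 35 at 0.00501 ± 0.00224. Asns was in place 22 in wild-type livers (0.638 ± 0.206 CPM per kilobase) and in place 12 in heterozygous livers (7.48 ± 5.95). The first 8 genes were the same and in the same order in both genotypes.

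The heterozygous libraries were high in different genes. Of the 30 tested genes, 12 had their highest heterozygous value in H12, 11 in H75, 5 in H15 and 2 in H11 (Chac1 and Trib3). Above the whole wild-type range were 14 genes in H12, 12 in H75, 11 in H15 and 8 in H11, against 28.6%, 29.1%, 20.5% and 20.8% of all genes tested. Below it were 4, 4, 3 and 7 genes, against 29.7%, 28.7%, 20.1% and 21.2%. Asns was led by H75, Ddit3, Atf3 and Nupr1 by H12, Chac1 by H11 and Aldh1l2 by H15. Set against the mean of the wild-type libraries, the median of the 30 genes was 0.26 in H75, 0.18 in H12, 0.17 in H15 and 0.0011 in H11, while wild-type libraries ran from -0.096 to 0.11.

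Acute phase genes were also highest and stellate cell markers lowest in H12 and H75, and the part of either in these values was not tested. Neutrophil markers summed to 0.908 to 2.28 CPM in wild-type and 1.4 to 6.97 CPM in heterozygous libraries, and their part was not tested either. Of 6 such markers, 3 had enough counts to be tested.

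Sorted by the response element, 8 of the tested genes had a match to TGATGNAA in a promoter and 19 had a promoter without one. Of the 8 (Asns, Atf3, Chac1, Fgf21, Jdp2, Nupr1, Trib3 and Vldlr), 4 were higher at an unadjusted p under 0.05, and the median log2 fold change was 0.95, from -1.43 for Vldlr to 3.55 for Asns. Of the 19, Mthfd2 alone had such a p, and the median was 0.066. Slc7a11, whose 2 matches are printed above, was not tested. Among all genes tested, 24 of 296 with a match (8.11%) and 476 of 10015 without (4.75%) were higher at that p, with medians of 0.013 and 0.0093, and 4.73% and 4.05% were lower. The listed genes are part of these counts: the 296 include the 8, and the 24 include the 4. A match is a run of letters and not a shown binding site, and the groups were not compared with a test.

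The cycle of eIF2α phosphorylation, the input of this pathway, gave small values apart from Ppp1r15a and Eif2s1. Of 11 tested genes of the cycle, edgeR called 0 over all genes, and 1 was higher and 2 were lower at an unadjusted p under 0.05, against 4.9% and 4.44% of all genes. Ppp1r15a, the phosphatase subunit GADD34 that ATF4 and CHOP induce to reverse the phosphorylation, had 9.09, 7.61, 6.78 and 9.0 CPM in wild-type libraries and 9.56, 14.1, 12.4 and 15.4 CPM in H11, H12, H15 and H75. The groups did not overlap (log2 fold change 0.66, SE 0.16, adjusted p = 0.354, edgeR), and DESeq2 called it (adjusted p = 0.0393), as it called Eif2s1 as lower (adjusted p = 0.0207). The kinase genes Eif2ak1 and Eif2ak2 had log2 fold changes of 0.18 (SE 0.081) and -0.30 (SE 0.13). The median of the list was 0.039.

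Amino acid transporters and aminoacyl-tRNA synthetases outside the list had small positive values as a rule. Of 18 tested genes, 16 had a log2 fold change above 0, edgeR called 0, and 1 was higher and 2 were lower at an unadjusted p under 0.05 (4.9% and 4.44% of all genes). The median was 0.14. Against the wild-type mean, the list median was 0.28 in H12, 0.15 in H75, 0.060 in H15 and -0.014 in H11. Wild-type libraries ran from -0.068 to 0.041 on this log2 scale. Slc38a2, a neutral amino acid transporter, had 98.6, 78.9, 76.3 and 82.3 CPM in wild-type libraries and 133, 142, 108 and 159 CPM in H11, H12, H15 and H75, without overlap (adjusted p = 0.232, edgeR; adjusted p = 0.00101, DESeq2). Slc1a4, a transporter of alanine, serine and cysteine, had a lower mean in heterozygous livers, at 4.72 ± 0.794 and 2.98 ± 0.673 CPM (SD, n = 4 each), as did Xpot, which exports tRNA from the nucleus (log2 fold change -0.28, SE 0.10). Gars, glycyl-tRNA synthetase, had a log2 fold change of 0.15 (SE 0.083).

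Other known outputs of ATF4 and CHOP gave 4 of 10 tested genes as higher at an unadjusted p under 0.05, 0 as lower and 0 called over all genes by edgeR, while 4.9% of all genes were higher and 4.44% lower at that p. The median log2 fold change was 0.38. Map1lc3b, an autophagosome protein, averaged 85.9 ± 6.87 and 114 ± 18.1 CPM, and Eif4ebp1, a translation repressor, 22.8 ± 4.16 and 31.3 ± 7.14 CPM (SD, n = 4 each). Cebpb, a C/EBP factor that acute phase signals also induce, had 17.7 to 23.5 CPM in wild-type libraries and 35.3, 78.2, 17.1 and 49.8 CPM in H11, H12, H15 and H75, and DESeq2 called it (adjusted p = 0.0451). The death gene Bcl2l11 was at 30.4 CPM in H12 and at 4.05 to 5.99 CPM in the other heterozygous libraries, against 2.31 to 4.57 CPM in wild type.

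The ATF6 and XBP1 arms of the unfolded protein response, which raise chaperones of the endoplasmic reticulum, gave higher means in heterozygous livers that differed widely between libraries. All 16 tested genes had a log2 fold change above 0, with a median of 0.45, while edgeR called 0 and 1 was higher at an unadjusted p under 0.05, against 4.9% of all genes. That gene was Xbp1, at 127 ± 16.1 and 195 ± 53.7 CPM (SD, n = 4 each). The next by p were the secreted chaperone cofactor Creld2 (log2 fold change 1.35, SE 0.65), Dnajb11 (0.49, SE 0.25) and Pdia6 (0.42, SE 0.22). The list median was 1.08 in H12, 0.77 in H75, -0.075 in H11 and -0.55 in H15, and wild-type libraries ran from -0.24 to 0.30. Ddit3 had the same order of libraries at the top, H12 and then H75, and was below the wild-type range in H11 and H15.

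**Figure D4:**
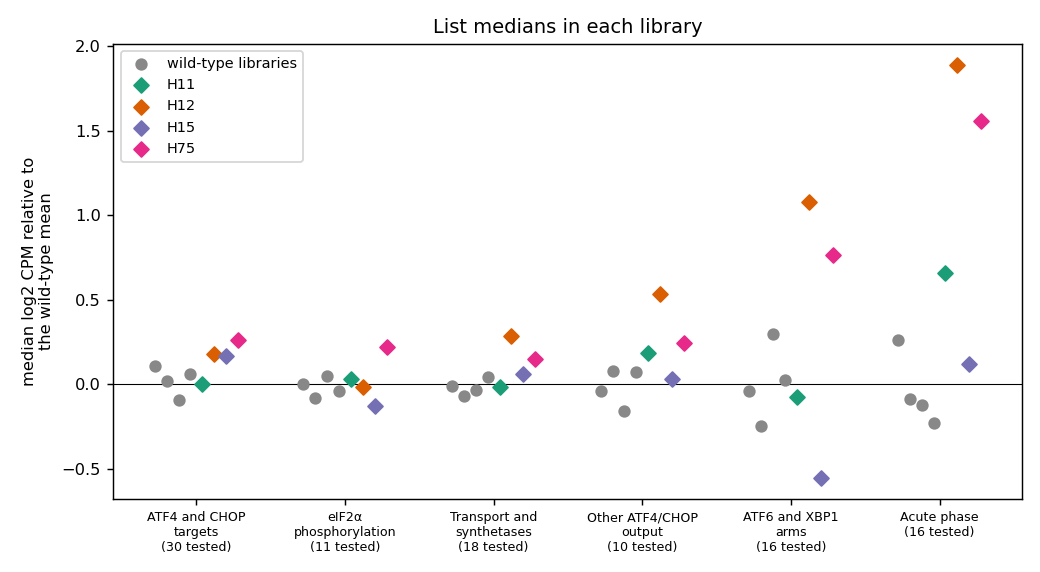
Median log2 CPM relative to the wild-type mean, over the tested genes of 6 lists, with 1 point per library (grey circles wild type, coloured diamonds heterozygous). H12 and H75 are the highest points of the ATF6 and XBP1 arms and of the acute phase list, and the medians of the ATF4 and CHOP targets range from 0.0011 to 0.26 in heterozygous libraries.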

How the data were processed

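Liver RNA of 8 mice was measured. The authors deposited 1 table of estimated counts per gene, not normalized, in which 90.0% of the values were whole numbers. The submitters' processing notes name the build mm10 and, without roles, SAMtools 1.9, GATK 3.8, Bowtie2 2.2.9 and fastp 0.19.5. No source used here names the counting program, its annotation or its strand setting. A second table deposited by the authors holds a fold (a ratio), its log2 value, a p-value, an adjusted p-value and a gene length. Its direction is not in the header, and its sign matched heterozygous over wild type for 99.5% of 13972 shared genes. Library names carry a letter for the genotype, and no label ties a library to a numbered replicate.

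Counts were rounded, filtered with filterByExpr, scaled by TMM and tested with edgeR's quasi-likelihood method (version 4.0.16, R 4.3.3), with Benjamini-Hochberg adjustment over 14261 genes and a threshold of 0.05. Loci without a gene name (541) held 0.431 to 0.977% of the counts of a library. Alternatives were DESeq2 1.42.0, limma 3.58.1 (voom), other scalings and filters and leaving out each library. The method was tested on simulated counts with known folds, in which each gene varied independently of the others. That test does not bear on the dependence of the calls on single libraries. The genes and lists were chosen with earlier results of these data known. Values of every library are given for Atf4, Ddit3, genes with an unadjusted p under 0.05 and genes without overlap, and from the other pathway lists up to 4 genes of lowest p are named. The library values of Atf3, Cth, Ddit4, Vldlr, Slc38a2, Cebpb and Bcl2l11 were printed after they had been seen. Annotation is GENCODE M21 (GRCm38).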

Additional observations from a re-analysis of the deposited data

Results flagged for a closer look

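In 70 groups of 4 libraries, 1 library lay far from the other 3 by Dixon's criterion for the gap over the range in 2 groups, and chance gives about 1 in 20 groups. Cth was at 296 CPM in H15, against 472, 474 and 488 CPM in the other heterozygous libraries. Slc7a11 was at 0.0771 CPM in W76, against 0.0341, 0.0357 and 0.0378 CPM in the other wild-type libraries, which is a matter of 2 counts against 1.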

How the results depend on the processing

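Of 30 tested genes, 22 kept the sign of their fold change under every setting that tested them and 8 did not (Atf5, Cbs, Fgf21, Gpt2, Mthfd1l, Psph, Shmt2 and Slc6a9), mostly when 1 library was left out. Mthfd1l ran from -0.090 to 0.59 and Fgf21 from -0.37 to 0.16. Over all genes edgeR called 0, and it called 18 (1 of the listed genes) with no filter on low counts, 1 with the newer quasi-likelihood method, 1 with a robust prior, 1 at an adjusted p under 0.1, and 0 to 252 when 1 library was left out (0 to 1 of the listed genes). Of these, 2 were called without W32 and 252 without H15. DESeq2 called 152 genes (2 listed), and in an alternative chosen after seeing the data 76, 113, 83 and 89 without W32, W33, W76 or W90 and 757, 120, 73 and 63 without H15, H11, H12 or H75 (1 to 5 listed). Listed genes without overlap numbered 3 to 6 without 1 library, against 5.86 to 13.4% of all genes. With library totals alone, Asns and Mthfd2 were higher and Bbc3 lower, against 1.14% and 3.5% of all genes. The median log2 fold change of the listed genes ran from 0.091 (library totals) to 0.24 (without W32). The cause was not tested. Depth limits Phgdh, Pycr1, Slc7a11, Stc2 and Tnfrsf10b. No paired analysis was possible because the labels name no pairing of wild-type with heterozygous animals.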

Other observations

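By role, the median log2 fold change was 0.74 for 7 tested transcription factor genes (6 above 0), 0.29 for 11 of amino acid and one-carbon metabolism (8 above 0) and 0.21 for 4 of feedback and growth control (3 above 0). It was 0.081 for 2 of tRNA charging and transport, -0.00087 for 2 of cell death and -0.27 for 4 of secreted factors and receptors (0 above 0). The 0.74 is the value of Ddit3, which was 0.043 without H12 (edgeR). Against the wild-type mean, the transcription factor median was 0.93 in H12, 0.32 in H15, 0.27 in H75 and -0.15 in H11. Wild-type libraries ran from -0.10 to 0.29 on this log2 scale. The median coefficient of variation of the 30 tested genes was 24.5% in wild-type and 21.1% in heterozygous livers, against 13.2% and 17.3% over all genes tested. It was larger in heterozygous livers for 16 of the 30 genes (53.3%) and for 65.2% of all genes tested.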
